A study of Mus musculus with 4 samples.

Results

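Heat shock proteins and their DnaJ partners were examined in cultured oligodendroglial cells with and without the transcription factor Zfp276. Members were all genes whose symbol places them among the Hspa, Hspb, Hspd, Hspe, Hsph, Hsp90, Dnaja, Dnajb or Dnajc families. Symbols marked as pseudogenes by -ps, 13 in all, were left out. This gave 72 of the 53465 genes counted, and 63 of them had enough reads to be tested among 15766 tested genes.

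Molecular chaperones hold unfolded proteins, help them fold and pass on those that cannot be rescued. Hsp70 proteins bind and release short hydrophobic stretches of a client in an ATP cycle. DnaJ proteins, also called Hsp40 or J proteins, bring the client and start ATP hydrolysis, and Hsp110 proteins exchange the nucleotide so that the client is let go. Hsp90 acts later on kinases, receptors and other signalling proteins, small heat shock proteins keep aggregating proteins soluble, and Hspd1 with Hspe1 forms the folding chamber of mitochondria. Heat shock factor 1 drives the inducible cytosolic members, and the unfolded protein response drives those of the endoplasmic reticulum (ER). Oligodendrocytes make large amounts of membrane and secretory-pathway protein when they form myelin.

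RNA-Seq had been performed on 1° mouse oligodendroglial cultures (OGCs) from forebrain of mice at P2 to P4, after shake-off, microglia depletion and 3 days in differentiating medium. Both Ctrl cultures were Zfp276 flox/flox, and both Zfp276cko cultures were Sox10::Cre tg; Zfp276 flox/flox, so Cre was driven by Sox10 regulatory sequences in the oligodendroglial lineage. Each of the 2 cultures per genotype was a separate preparation that pooled 3 mice. The paper states that mice for such primary cultures also received a stop-floxed tdTomato reporter allele, by which Zfp276cko newborns were identified. It gives a mixed strain background for transgenic and control mice. Both genotypes carry the floxed Zfp276 alleles and only Zfp276cko carries the Cre transgene. The transgene, any tdTomato expression that it switches on and the deletion therefore cannot be told apart. The part of the reporter in the results below was not tested.

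Counted reads ranged from 21068322 to 26599809 per library. The targeted gene Zfp276 had 1648 and 2230 normalized counts in Ctrl and 490 and 503 in Zfp276cko (log2 fold change -1.97), which gave an adjusted p of 0.0962 by edgeR and 1.17e-14 by DESeq2. Markers of oligodendroglia were high in every library, but their summed level was 12305 and 16716 CPM (counts scaled to a common library total) in Ctrl and 8654 and 8823 CPM in Zfp276cko, and 4 of 6 were lower in Zfp276cko by DESeq2. The Ctrl libraries were far apart from each other: their biological coefficient of variation was 0.357, against 0.0480 between the Zfp276cko libraries. The summed fibroblast and vessel markers were 237 CPM in Ctrl replicate 1 and at most 12.9 CPM elsewhere. The fibroblast genes made this difference, since the vessel marker Pecam1 had 106 and 93.4 normalized counts in Ctrl and 153 and 161 in Zfp276cko, and Cldn5 was at 0. The summed neuron markers were 49.4 CPM in Ctrl replicate 1 and 123 to 173 CPM elsewhere. The summed microglia markers were 818 CPM in Ctrl replicate 1 and 422 to 657 CPM elsewhere, but single markers went different ways: Csf1r was highest in Ctrl replicate 1, Aif1 and Cx3cr1 were lowest there, and Cd68 was higher in Zfp276cko by DESeq2. The summed astrocyte markers were 960 and 854 CPM in Ctrl and 962 and 938 CPM in Zfp276cko, but single markers differed here too. Gfap was highest in Ctrl replicate 1 (17641 normalized counts, against 8463 in Ctrl replicate 2). Aqp4, Aldh1l1, Slc1a3 and Gja1 were lowest in Ctrl replicate 1, and Aldh1l1 was higher in both Zfp276cko libraries than in Ctrl. In such bulk cultures fewer cells of a type and less RNA per cell cannot be told apart, and the part of these cell markers in the results below was not tested.

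The start regions of some members carry the sequences by which these genes are classically switched on. They are shown because, as described below, the inducible Hsp70 pair lay above Ctrl and the ER members Hspa5, Hsp90b1 and Dnajc3 lay below it. Other inducible members did not follow the pair: Hsph1, Dnajb1 and Hsp90aa1 lay below Ctrl, and Hspb1 overlapped. Not all ER members lay below Ctrl. RefSeq start regions (GRCm38.p6) were matched for 58 of the 72 members, and the 250 bases before each start were searched on both strands. Members with no matched region, which were not searched, included Hsp90aa1, Hsp90ab1, Hspa8, Hspa9, Hspa13 and Dnajc12. Dnajb1 was searched and held none of the motifs described next. Capitals mark the motif, and all sequences read 5′ to 3′ on the strand of the gene. The heat shock element was searched as a pair (GAANNTTC or TTCNNGAA) and as a triple of GAA and TTC units in turn with 2 bases of any kind between units, so each triple also contains the pair. The ER stress element was searched as CCAAT, 9 bases of any kind and CCACG. Where the motif lay in an annotated exon of GENCODE, only 30 bases around it are given.
Hspa1b, chr17:34959239-34959488, minus strand: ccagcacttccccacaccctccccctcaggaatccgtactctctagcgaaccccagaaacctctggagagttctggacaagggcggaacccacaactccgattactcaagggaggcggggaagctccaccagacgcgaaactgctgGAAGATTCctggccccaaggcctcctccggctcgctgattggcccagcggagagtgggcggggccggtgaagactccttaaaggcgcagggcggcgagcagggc
Hspa1a, chr17:34972157-34972406, minus strand: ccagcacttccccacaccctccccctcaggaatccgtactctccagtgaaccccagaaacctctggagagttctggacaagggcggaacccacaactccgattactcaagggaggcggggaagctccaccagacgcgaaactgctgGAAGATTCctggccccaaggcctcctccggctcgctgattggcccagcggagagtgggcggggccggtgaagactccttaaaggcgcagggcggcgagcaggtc
Hsph1, chr5:149636351-149636380, minus strand: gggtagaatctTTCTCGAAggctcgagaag
Hspe1, chr1:55088053-55088082, plus strand: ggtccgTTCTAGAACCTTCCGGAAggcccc
Hspa5, chr2:34772020-34772049, plus strand: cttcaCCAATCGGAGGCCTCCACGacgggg
Hsp90b1, chr10:86705510-86705694, minus strand: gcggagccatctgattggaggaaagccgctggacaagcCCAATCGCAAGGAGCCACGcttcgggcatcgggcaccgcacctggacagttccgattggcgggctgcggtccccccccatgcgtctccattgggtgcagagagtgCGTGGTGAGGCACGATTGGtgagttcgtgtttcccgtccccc
Dnajc3, chr14:118937682-118937931, plus strand: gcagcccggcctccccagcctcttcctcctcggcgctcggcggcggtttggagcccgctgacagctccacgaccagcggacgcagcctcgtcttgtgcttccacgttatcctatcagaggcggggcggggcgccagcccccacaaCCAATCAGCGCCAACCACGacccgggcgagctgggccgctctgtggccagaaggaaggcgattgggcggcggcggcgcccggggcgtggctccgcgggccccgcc

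The windows of Hspa1a and Hspa1b were identical in 247 of 250 bases. The heat shock pair was present in 14 of the 58 members (24.1%), against 14.5% of 27025 genes. The triple was present in Dnajb6, Hspd1 and Hspe1 (5.17%, against 0.514% of all genes), and Hspd1 and Hspe1 face away from each other across the same window. The ER stress element was found in Hspa5, Hsp90b1 and Dnajc3 (5.17%, against 0.13%). A match is a run of letters and not a measured binding site, and these motifs were picked because they are known in these genes.

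Few members differed between the genotypes beyond the spread of the libraries. No member reached an adjusted p of 0.05 in edgeR's quasi-likelihood test, where 0% of the 15766 genes did. By unadjusted p alone, Hspa2, Hsph1 and Dnajc7 were lower in Zfp276cko (3 of 63 members, against 7.3% of all genes), and Hspa1b and Dnajc12 were higher (2 of 63, against 8.33%). With the further thresholds on fold and mean count, Hspa2 remained on the lower side (1 of 63, against 3.02%) and Hspa1b and Dnajc12 on the higher side (2 of 63, against 5.11%). DESeq2 called Hspa2 lower (1 of 60 members, against 2.27% of 14879 genes) and no member higher (against 3.02%). Apart from the first, where both were 0, each share of the members lay below that of all genes.

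The members were more often found below than above Ctrl. In 26 of 63 members, neither Zfp276cko library reached the lower Ctrl library (41.3%, against 23.7% of all genes), in 13 both exceeded the higher Ctrl library (20.6%, against 26.8%), and 24 overlapped. The median log2 fold change was -0.10 over the members and -0.0013 over all genes, with a range from -0.78 to 1.14 and 40 of 63 members below 0. These are counts with no test, and an exact permutation test of 2 against 2 libraries cannot go below 0.333.

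The calls changed when single libraries were left out. Without Ctrl replicate 1, edgeR called Hspa2 lower and Hspb8, Dnajc12 and Hspa1b higher, beside 5.76% of genes called lower and 10.2% called higher. Without Ctrl replicate 2, it called Hspa2 lower and Dnajb3, Dnajc12, Hspa1b and Hspa1a higher, beside 7.77% and 10.8% of genes. The remaining single Ctrl library was then assumed to vary like the Zfp276cko pair. Without either Zfp276cko library no gene was called, members included, so the lack of calls there is not particular to the members. The members' median log2 fold change was then -0.09 without Zfp276cko replicate 1 and -0.10 without Zfp276cko replicate 2. Members entirely above Ctrl numbered 25 without Ctrl replicate 1, where 44.4% of all genes did so, and the median of the members moved to -0.04.

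**Figure D1:**
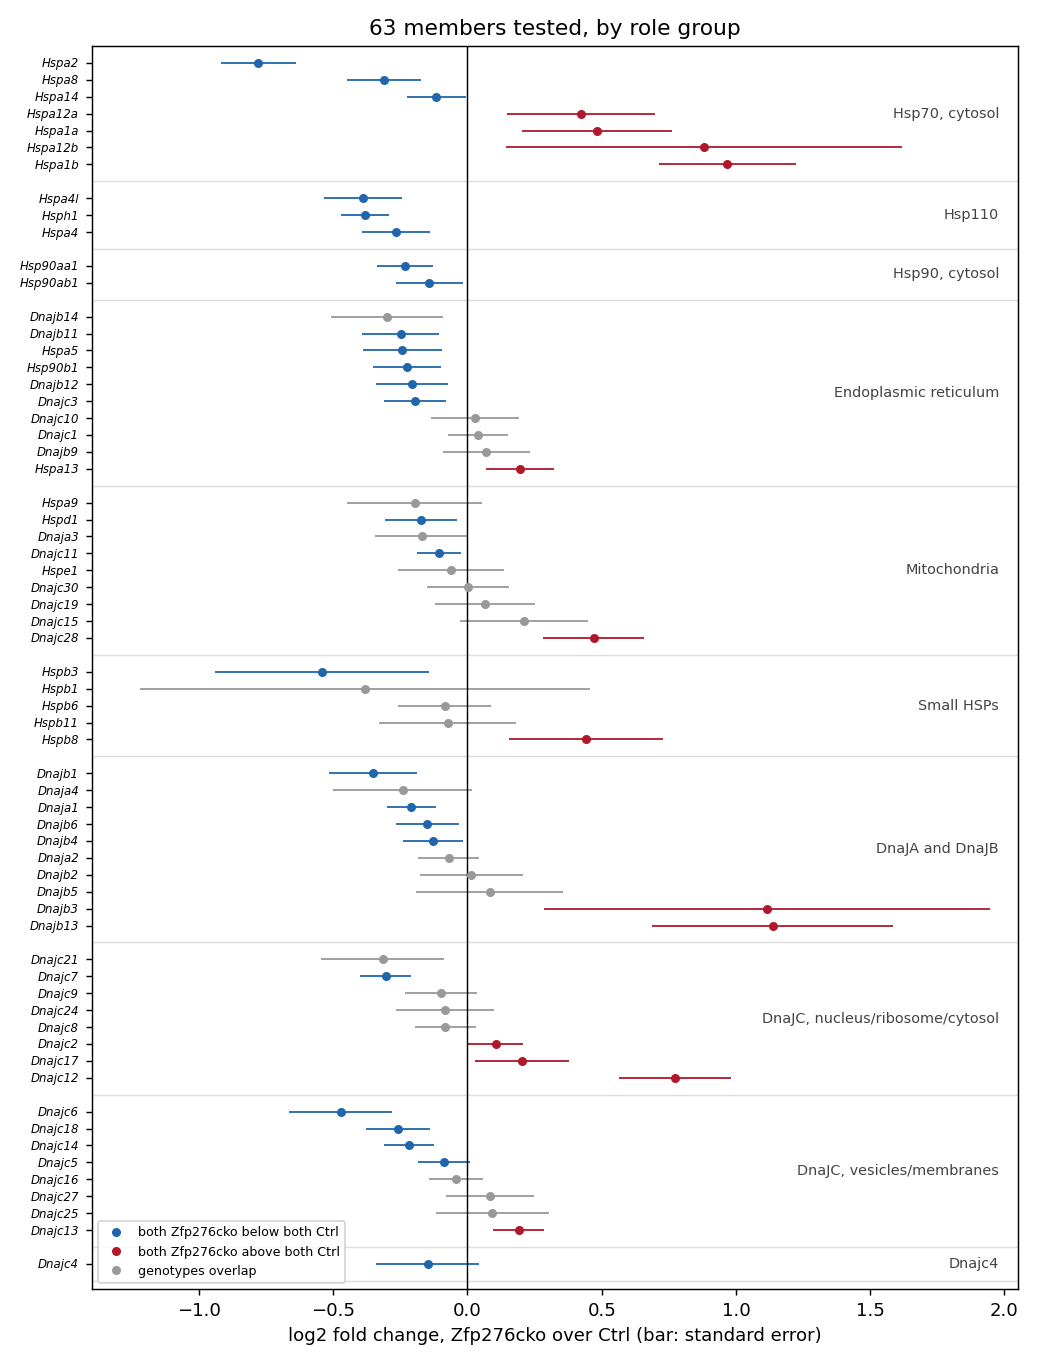
Log2 fold change (Zfp276cko over Ctrl, x axis) of the 63 tested members by role group, with points for edgeR estimates and bars for standard errors. Blue marks the 26 members lower in each Zfp276cko library than in any Ctrl library, red the 13 that were higher and grey the 24 that overlapped, and Hspa2 lies farthest to the left at -0.78.

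The cells expressed a broad set of constitutive chaperones. Levels were compared between genes as CPM per kb of transcript. Hsp90ab1, the constitutive cytosolic Hsp90, led with a mean of 724 CPM per kb over the 4 libraries (681 to 766), followed by Hspa8, the constitutive cytosolic Hsp70, with 449 (385 to 531). The ranges of these leading genes did not overlap each other or those of any other member.

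Among the members that followed, each overlapped in range with the next in the order. Hsp90b1 of the ER had 159 CPM per kb (143 to 184), Hspa9 of mitochondria 153 (126 to 201), Hspa5 of the ER 131 (117 to 157), Hsp90aa1 of the cytosol 119 (106 to 130), Hspd1 118 (109 to 137) and Hspa4 114 (103 to 134). In all, 8 members exceeded 100 CPM per kb, 31 lay between 10 and 100, 19 between 1 and 10, 7 between 0.1 and 1, and 7 under 0.1. Members that stress can induce were spread over this order, from Hsp90aa1 and Hsph1 (49.1 CPM per kb) through Dnajb1 (14.3) to Hspa1b (1.57), Hspa1a (0.98) and Hspb1 (0.46). Together the 72 members took 0.817% and 0.882% of the counts in Ctrl and 0.799% and 0.802% in Zfp276cko, so even the summed share was lower in both Zfp276cko libraries.

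**Figure D2:**
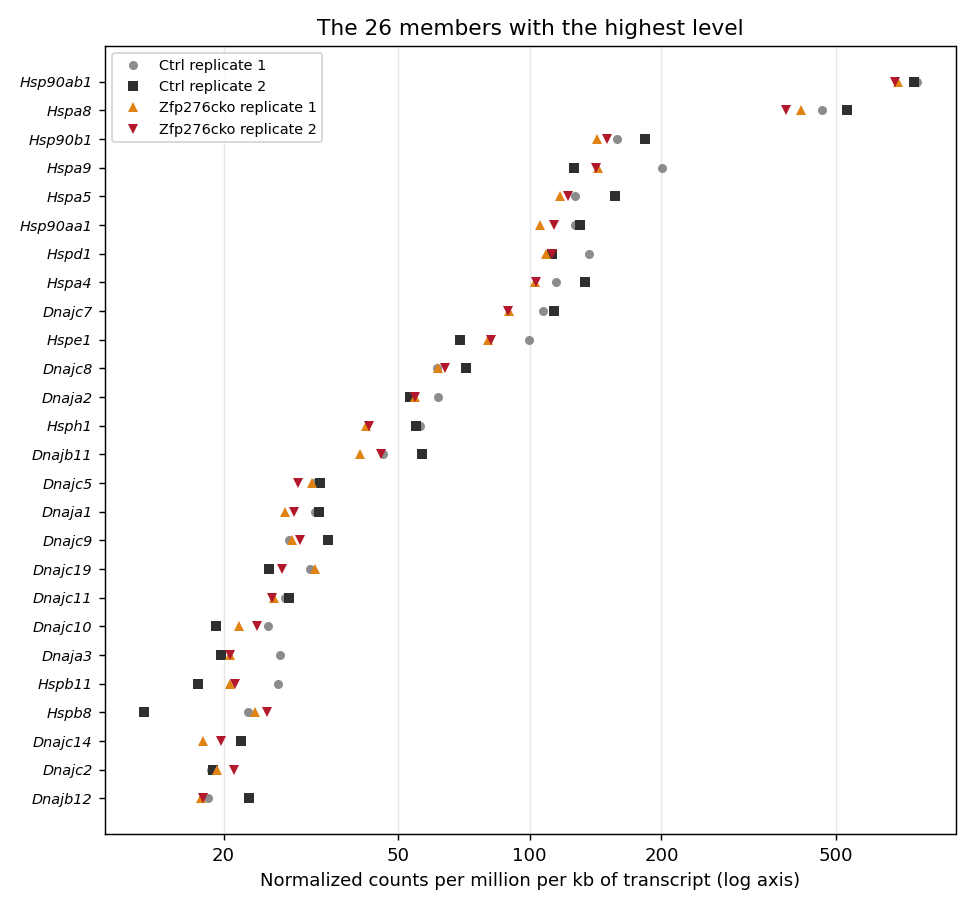
Level in CPM per kb of transcript (log axis) of the 26 members with the highest mean, with 1 point per library. Hsp90ab1 and Hspa8 stand apart at the top with means of 724 and 449, and Hspa9 shows the Ctrl libraries (grey and black) on either side of the Zfp276cko libraries.

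The cytosolic Hsp70 genes lay on both sides of Ctrl, with Hspa2, Hspa8 and Hspa14 below and the inducible pair Hspa1a and Hspa1b above. Hspa2, an Hsp70 best known from sperm development and also present in brain, had 565 and 512 normalized counts in Ctrl and 312 and 315 in Zfp276cko. The replicates of each genotype were close, and the Zfp276cko mean was 58.2% of the Ctrl mean. The log2 fold change was -0.78 ± 0.14 (SE, 2 libraries per genotype; edgeR adjusted p = 0.158), and DESeq2 called the fall (adjusted p = 0.00689). Hspa2 lies at chr12:76404176-76406938, and its log2 fold change stayed between -0.86 and -0.71 with any library left out.

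Hspa8 folds new proteins and strips clathrin coats from vesicles. It had 26253 and 30059 normalized counts in Ctrl and 23565 and 21796 in Zfp276cko (log2 fold change -0.31 ± 0.14, edgeR adjusted p = 0.381). The genotypes did not overlap, but the gap between the Ctrl libraries was larger than that between Ctrl replicate 1 and the nearer Zfp276cko library. Of the read-length windows of Hspa8, 63.3% also occur in transcripts of other genes, mainly Gm26825, so its count depends on how shared reads were treated. Hspa14, an Hsp70 of the ribosome, had a log2 fold change of -0.12 ± 0.11 and was lower in both Zfp276cko libraries.

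Hspa1a and Hspa1b encode the stress-inducible Hsp70 and lie next to each other on chromosome 17, at 34969190-34972156 and 34956436-34959238. Hspa1b had 78.4 and 61.9 normalized counts in Ctrl and 128 and 146 in Zfp276cko, while Hspa1a had 49.9 and 65.3 in Ctrl and 75.1 and 85.9 in Zfp276cko. For both genes the genotypes did not overlap. The log2 fold change was 0.97 ± 0.25 for Hspa1b (edgeR adjusted p = 0.219; DESeq2 adjusted p = 0.149) and 0.48 ± 0.28 for Hspa1a (edgeR adjusted p = 0.480). The near-identical genes share 48.4% to 49.7% of their read-length windows, so the division of reads between them is uncertain. Summed over both genes, Ctrl had 128 and 127 normalized counts and Zfp276cko 204 and 232.

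The remaining members of the group were sparse and lay above Ctrl in both Zfp276cko libraries. Hspa12a, a distant Hsp70 relative, had 47.5 and 42.8 normalized counts in Ctrl and 66.0 and 55.0 in Zfp276cko. Its relative Hspa12b had 2.38 and 11.2 in Ctrl and 11.8 and 13.8 in Zfp276cko. Of the 7 tested members of the group, 3 lay below and 4 above Ctrl, against 23.7% and 26.8% of all genes. The median log2 fold change of the group was 0.42. This median was 0.18 without Ctrl replicate 1, and 0.17 when at least 10 counts were required in every library.

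**Figure D3:**
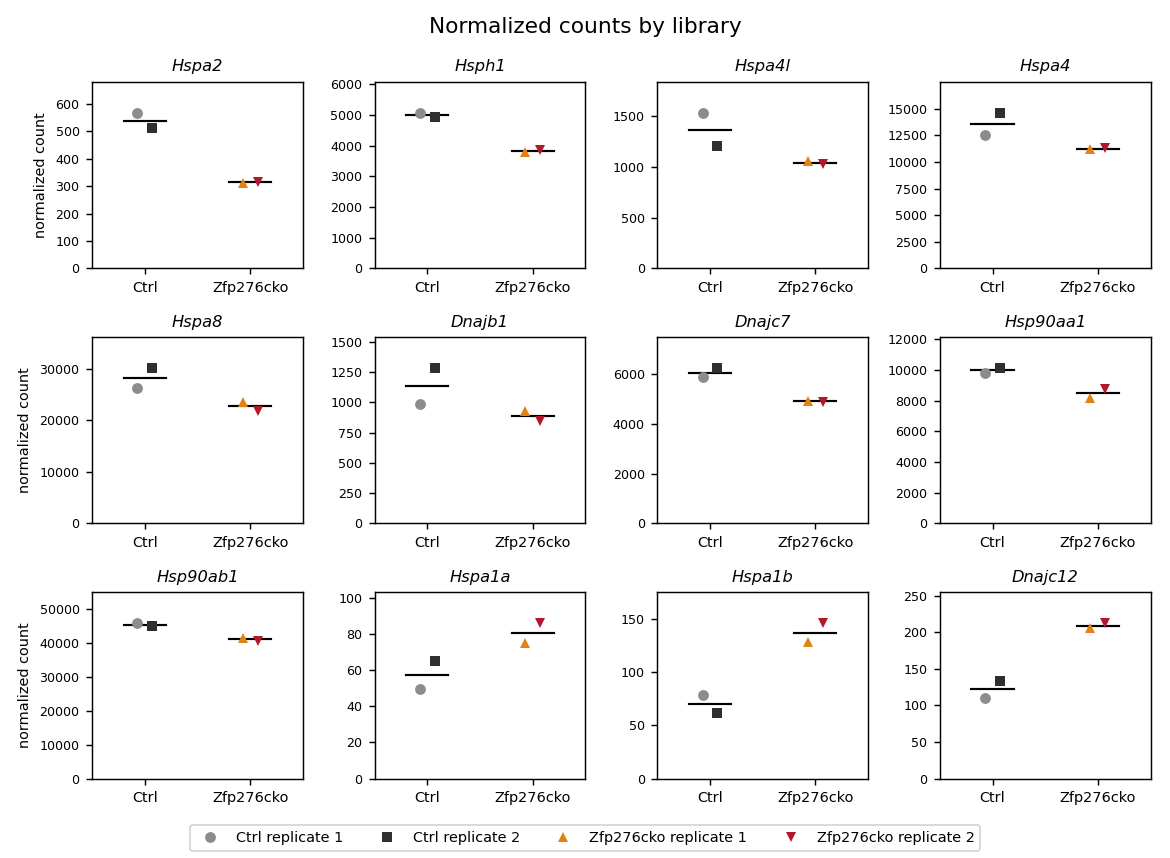
Normalized counts by library of 12 members, with 2 points per genotype, a black line at their mean and axes from 0. In Hspa2 both Zfp276cko libraries lie near 58.2% of the Ctrl mean, in Hspa1a, Hspa1b and Dnajc12 both lie above Ctrl, and the other panels show smaller gaps below Ctrl.

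All 3 Hsp110 genes, the nucleotide exchange factors of cytosolic Hsp70, lay below Ctrl without overlap, where 23.7% of all genes did (median log2 fold change -0.38). Hsph1, the heat-inducible Hsp110, had 5053 and 4937 normalized counts in Ctrl and 3800 and 3869 in Zfp276cko, so the replicates of each genotype were close. Its log2 fold change was -0.38 ± 0.09 (edgeR adjusted p = 0.193; DESeq2 adjusted p = 0.0680), which passed neither test after adjustment.

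Hspa4l, a relative of Hspa4 known from testis and also expressed in brain, had 1524 and 1203 normalized counts in Ctrl and 1058 and 1023 in Zfp276cko (log2 fold change -0.39 ± 0.15). Hspa4, the most abundant of the group, had 12528 and 14577 in Ctrl and 11256 and 11286 in Zfp276cko (log2 fold change -0.27 ± 0.13). In these Hsp110 genes the values were spread more widely in Ctrl than in Zfp276cko.

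The cytosolic Hsp90 genes showed the same order of the libraries at a smaller size. Hsp90aa1, the inducible form, had 9844 and 10112 normalized counts in Ctrl and 8207 and 8793 in Zfp276cko (log2 fold change -0.23 ± 0.10, edgeR adjusted p = 0.390). Hsp90ab1 had 45617 and 44841 in Ctrl and 41367 and 40586 in Zfp276cko (log2 fold change -0.14 ± 0.12, edgeR adjusted p = 0.632). Neither passed the test, and 47.3% of the read-length windows of Hsp90aa1 are shared with other transcripts, mainly of Gm12346.

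The DnaJA and DnaJB proteins of cytosol and nucleus feed clients to Hsp70. Dnajb1, the inducible Hsp40 that works with Hspa8 on aggregates, had 987 and 1281 normalized counts in Ctrl and 930 and 847 in Zfp276cko (log2 fold change -0.35 ± 0.17, edgeR adjusted p = 0.404). Dnaja1, a general Hsp70 partner, had 4292 and 4391 in Ctrl and 3666 and 3848 in Zfp276cko (log2 fold change -0.21 ± 0.09, edgeR adjusted p = 0.378). In Dnajb1 the lower Ctrl library lay close to the Zfp276cko libraries. In Dnaja1 the replicates of each genotype were closer and the genotypes did not overlap, but the gene did not pass the test.

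Dnajb6, which holds back aggregation of polyglutamine proteins, and Dnajb4 were also lower in both Zfp276cko libraries (log2 fold changes -0.15 ± 0.12 and -0.13 ± 0.11). Dnaja2, the most abundant gene of the group, overlapped between the genotypes with 4253 and 3676 normalized counts in Ctrl and 3775 and 3778 in Zfp276cko. Dnaja4, Dnajb2 and Dnajb5 overlapped as well. Dnajb5 had 868 normalized counts in Ctrl replicate 1 and 1474 in Ctrl replicate 2, with both Zfp276cko libraries between them (1261 and 1220).

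Dnajb13, a J protein of cilia and flagella, had 5.94 and 7.88 normalized counts in Ctrl and 12.7 and 18.0 in Zfp276cko, which gave the highest log2 fold change of all members (1.14 ± 0.45, edgeR adjusted p = 0.345). Dnajb3 had 5.94 and 37.1 in Ctrl and 41.6 and 52.4 in Zfp276cko (log2 fold change 1.11 ± 0.83), and this value was 0.34 without Ctrl replicate 1. Of the 10 tested members 4 lay below and 2 above Ctrl, against 23.7% and 26.8% of all genes. The median log2 fold change of the group was -0.10. Leaving out Ctrl replicate 1 or Zfp276cko replicate 1 made the median -0.06, and leaving out Ctrl replicate 2 made it -0.16.

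Among the 10 ER members, the leading chaperones lay below Ctrl in both Zfp276cko libraries. Hspa5 (BiP), the Hsp70 of the ER lumen, had 10988 and 13613 normalized counts in Ctrl and 10170 and 10620 in Zfp276cko (log2 fold change -0.24 ± 0.15, edgeR adjusted p = 0.498). Hsp90b1 (GRP94), the Hsp90 of the ER, had 10585 and 12264 in Ctrl and 9534 and 10010 in Zfp276cko (log2 fold change -0.23 ± 0.13, edgeR adjusted p = 0.468). For both genes the Ctrl libraries differed more from each other than Ctrl replicate 1 did from the Zfp276cko libraries.

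Dnajb11, a J protein of the ER lumen that serves Hspa5, had 2744 and 3380 normalized counts in Ctrl and 2438 and 2717 in Zfp276cko. Dnajc3, which curbs the ER stress kinase, and Dnajb12 of the ER membrane had log2 fold changes of -0.20 ± 0.12 and -0.21 ± 0.14. The 3 carriers of the ER stress element, Hspa5, Hsp90b1 and Dnajc3, all lay below Ctrl (23.7% of all genes did), with log2 fold changes between -0.24 and -0.20. Dnajb11 and Dnajb12, where the element was not found, lay below Ctrl as well. In Hspa5 and Dnajc3 the Ctrl libraries (log2 ratios of -0.31 and -0.20) differed more from each other than the genotypes did. Of the 14 carriers of the heat shock pair, 6 lay below Ctrl and 2 above, against 23.7% and 26.8% of all genes, and 6 overlapped. Their median log2 fold change was -0.14, and those above were Hspa1a and Hspa1b.

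Not every ER member followed. Hspa13, an Hsp70-like protein of microsomes, had 1339 and 1336 normalized counts in Ctrl and 1383 and 1680 in Zfp276cko (log2 fold change 0.20 ± 0.13). Dnajb14 of the ER membrane overlapped and had the lowest log2 fold change of the group (-0.30 ± 0.21), and Ctrl replicate 1 with 2088 normalized counts lay above the other libraries (1336 to 1539). Dnajb9, Dnajc1 and Dnajc10 overlapped. In all, 5 members lay below and 1 above Ctrl, against 23.7% and 26.8% of all genes. The median log2 fold change of the group was -0.20, and it was -0.10 without Ctrl replicate 2.

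In 7 of the 9 mitochondrial members the Ctrl libraries differed more from each other than the genotypes did. The same held in 8 of 10 ER members, 5 of 5 small heat shock proteins and 6 of 10 DnaJA and DnaJB members. Among DnaJC members it held in 5 of 8 of nucleus, ribosome and cytosol and in 2 of 8 of vesicles and membranes. It also held in 1 of 7 cytosolic Hsp70 genes, but in no Hsp110 or cytosolic Hsp90 gene. The share over all genes was not counted, so these counts do not set the groups apart from other genes. The median gap between the Ctrl libraries, on the log2 scale and without sign, was 0.32 over all genes and 0.23 over the members. Hspa9 (mortalin), the Hsp70 of the matrix, had 14484 and 9107 normalized counts in Ctrl and 10344 and 10236 in Zfp276cko. Hspe1, the lid of the folding chamber, had 1824 and 1268 in Ctrl and 1473 and 1491 in Zfp276cko. In both, the Zfp276cko libraries lay between the Ctrl libraries.

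Hspd1, the wall of the chamber, had 7837 and 6457 normalized counts in Ctrl and 6252 and 6426 in Zfp276cko, and the lower Ctrl library was almost level with Zfp276cko. The log2 fold changes were -0.20 ± 0.25 for Hspa9, -0.17 ± 0.13 for Hspd1 and -0.06 ± 0.20 for Hspe1. Without Ctrl replicate 1 they were 0.18, -0.03 and 0.23. Hspd1 and Hspe1 overlap in 112 exonic bases on opposite strands, and the strand setting of the counting was not given in the sources used here.

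Dnajc28, a poorly described J protein, had 164 and 151 normalized counts in Ctrl and 228 and 208 in Zfp276cko (log2 fold change 0.47 ± 0.19, edgeR adjusted p = 0.350). Dnajc11, which takes part in shaping the inner membrane, was lower in both Zfp276cko libraries (log2 fold change -0.11 ± 0.08). Dnaja3, Dnajc15, Dnajc19 and Dnajc30 overlapped. Of the 9 members 2 lay below and 1 above Ctrl, against 23.7% and 26.8% of all genes. The median log2 fold change of -0.06 became 0.18 with Ctrl replicate 1 left out and -0.10 with Ctrl replicate 2 left out.

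Ctrl replicate 1 lay above Ctrl replicate 2 in 7 of the 9 mitochondrial members, with a median log2 ratio of 0.31. In the 8 DnaJC genes of nucleus, ribosome and cytosol it lay below in every case, with a median of -0.22. Ctrl replicate 1 was the higher library in 31 of all 63 members and in 7780 of the 15766 tested genes. Over all 63 members the median gap, on the log2 scale and without sign, was 0.23 between the Ctrl libraries and 0.08 between the Zfp276cko libraries, against 0.32 and 0.10 over all genes. In 44 of the 63 members the gap between the Zfp276cko libraries was the smaller one. The fibroblast, neuron and microglia markers and single astrocyte markers, given above, also differed between the Ctrl libraries. Their part in these gaps was not tested.

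**Figure D4:**
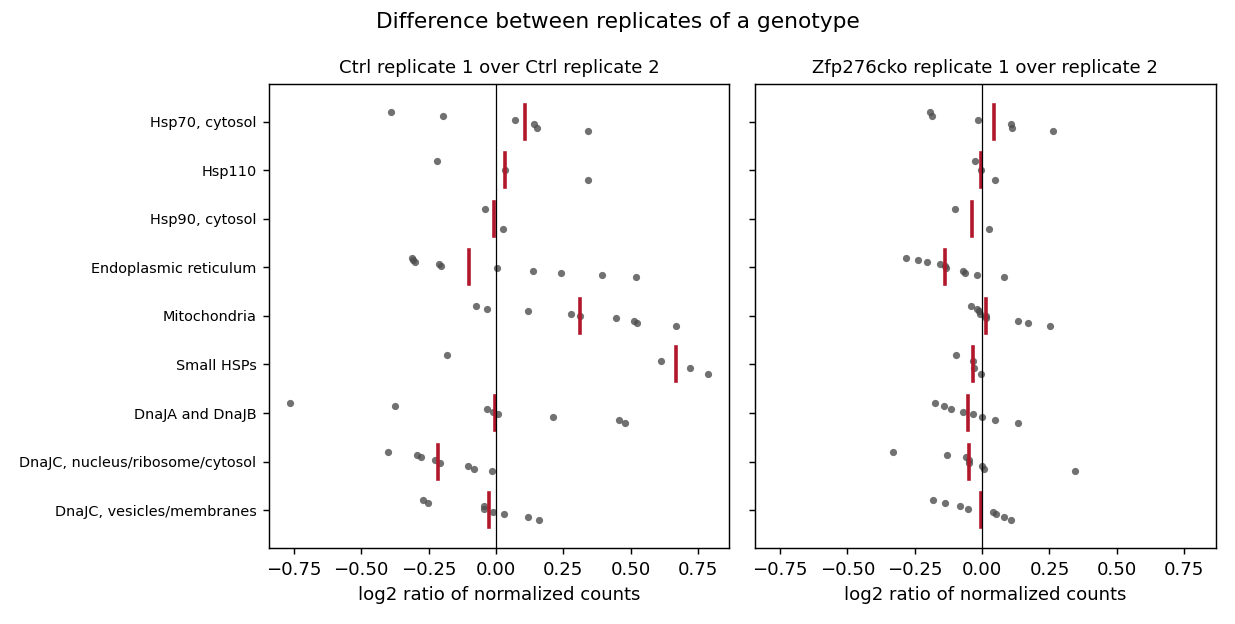
Log2 ratio of the normalized counts of both replicates of Ctrl (left) and Zfp276cko (right) for 58 members with at least 10 counts in every library, by role group, with red lines at the medians. The mitochondrial members lie mostly to the right in Ctrl (median 0.31) and the DnaJC members of nucleus, ribosome and cytosol to the left (-0.22). In Zfp276cko the median gaps of these groups, without sign, are 0.02 and 0.06. Cytosolic Hsp90 has a larger median gap in Zfp276cko (0.06) than in Ctrl (0.03).

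Small heat shock proteins were detected for 5 of 8 genes at a level that could be tested. Hspb8, which works with Bag3 to send clients to autophagy, had 976 and 565 normalized counts in Ctrl and 1013 and 1082 in Zfp276cko. Both Zfp276cko libraries lay above Ctrl, but Ctrl replicate 1 was almost level with them. The log2 fold change of 0.44 ± 0.29 (edgeR adjusted p = 0.521) rested on Ctrl: it was 0.89 with Ctrl replicate 1 left out and 0.09 with Ctrl replicate 2 left out.

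Hspb1 (Hsp25), a stress-inducible small heat shock protein that also protects actin, had 15.4 and 6.75 normalized counts in Ctrl and 13.6 and 3.44 in Zfp276cko, which is too few to show a difference (log2 fold change -0.38 ± 0.84). Its read-length windows are shared at 56.3%, mainly with Hsp25-ps1. Hspb3, best known from muscle, was lower in both Zfp276cko libraries with 29.7 and 18.0 in Ctrl and 16.3 in both Zfp276cko libraries (log2 fold change -0.54 ± 0.40). Hspb6 and Hspb11, a part of the ciliary transport complex in spite of its name, overlapped. The median of the 5 tested genes was -0.08 on the log2 scale, and it was 0.27 when Ctrl replicate 1 was left out and -0.36 when Ctrl replicate 2 was.

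The DnaJC proteins share only the J domain and act in many places. Dnajc12, a partner of Hsp70 in the folding of aromatic amino acid hydroxylases, had 110 and 134 normalized counts in Ctrl and 205 and 212 in Zfp276cko, without overlap. Its log2 fold change was 0.77 ± 0.21 (edgeR adjusted p = 0.229; DESeq2 adjusted p = 0.153). Dnajc12 lies at chr10:63382443-63410576, and its log2 fold change ranged from 0.64 to 0.91 with any library left out.

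Dnajc7 (Tpr2), which passes clients between Hsp70 and Hsp90, had 5908 and 6243 normalized counts in Ctrl and 4933 and 4909 in Zfp276cko (log2 fold change -0.30 ± 0.09, edgeR adjusted p = 0.270). Its exons overlap those of the myelin gene Cnp on the opposite strand over 154 bases, which is 3.17% of the exonic length of Dnajc7. Cnp itself had 42469 and 64535 normalized counts in Ctrl and 29020 and 27869 in Zfp276cko, and its part in the value of Dnajc7 was not tested.

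Of the other DnaJC members of nucleus, ribosome and cytosol, Dnajc2 at the ribosome and Dnajc17, linked to splicing, lay above Ctrl (log2 fold changes 0.11 ± 0.10 and 0.20 ± 0.17). Dnajc8 of the spliceosome, the most abundant after Dnajc7, overlapped with 2031 and 2376 normalized counts in Ctrl and 2046 and 2117 in Zfp276cko. Dnajc9, Dnajc21 and Dnajc24 overlapped too. The median log2 fold change of these 8 was -0.08. Leaving out Ctrl replicate 1 made it -0.16, leaving out Ctrl replicate 2 made it 0.03, and leaving out Zfp276cko replicate 2 made it -0.03.

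Among DnaJC members of vesicles and membranes, Dnajc6 (auxilin), the neuronal partner of Hspa8 in removing clathrin coats, had 176 and 181 normalized counts in Ctrl and 125 and 132 in Zfp276cko (log2 fold change -0.47 ± 0.19, edgeR adjusted p = 0.352). Dnajc14 of the ER membrane had 2179 and 2193 in Ctrl and 1792 and 1969 in Zfp276cko (log2 fold change -0.22 ± 0.09). In these genes the Ctrl libraries were close together and the genotypes did not overlap. Dnajc18 was also lower in both Zfp276cko libraries (log2 fold change -0.26 ± 0.12).

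Dnajc5, the cysteine string protein of secretory vesicles and the most abundant of this group, had 4991 and 5150 normalized counts in Ctrl and 4952 and 4599 in Zfp276cko, a log2 fold change of only -0.09 ± 0.10. Dnajc13, which acts in endosome sorting, lay above Ctrl with 3304 and 3042 in Ctrl and 3555 and 3688 in Zfp276cko (log2 fold change 0.19 ± 0.10). Dnajc16, Dnajc25 and Dnajc27 overlapped. Of the 8 tested genes 4 lay below and 1 above Ctrl, against 23.7% and 26.8% of all genes. Their median log2 fold change of -0.06 was -0.02 without Zfp276cko replicate 2 and -0.11 without Zfp276cko replicate 1. Dnajc4, placed in no group, was lower in both Zfp276cko libraries (log2 fold change -0.15 ± 0.19).

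The 9 members that could not be tested were close to or at 0. Dnajc22 had 3 and 4 counted reads in Ctrl and 5 and 3 in Zfp276cko, and Hspa1l, the testis relative of the inducible Hsp70, had 2 and 6 in Ctrl and 5 and 9 in Zfp276cko. Hspb2 had 1 and 0 in Ctrl and 7 and 4 in Zfp276cko, and 30.2% of its exonic length overlaps Cryab on the other strand. Dnajb7, Hspb7 and Hspb9 had at most 1 count in a library. Dnajb8, Dnajc5b and Dnajc5g had no count in any library, which allows up to 3 counts per library as a limit of counting.

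Some members overlap other genes on the opposite strand, so their counts are uncertain without the strand setting. The overlap covers 71.9% of the exonic length of Hspa1l (with Gm10501) and 37.2% of that of Dnajb8 (with 1700031F10Rik), both untested. Among tested members it covers 44.1% of Dnaja4 (with Wdr61), 26.2% of Dnajc30 (with Bud23) and 19% of Hspa1a (with Gm20481). It also covers 17% of Dnajc14 (with Ormdl2), 11.2% of Dnajb13 (with Ucp2) and 10.3% of Hsp90b1 (with 1810014B01Rik). Read-length windows shared with other transcripts made up 34.7% of those of Dnajb6, 26.7% of Hspd1, 20.3% of Hspe1, 16.6% of Dnajc19 and 14.8% of Dnaja1. All other members not named for this above shared at most 12.4%.

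Other genes of protein folding were listed for comparison. Of 27 tested heat shock factors and cochaperones, 6 lay below Ctrl (23.7% of all genes did), 2 above (26.8% of all genes) and 19 overlapped (median log2 fold change -0.09), and none had an unadjusted edgeR p of at most 0.05. Leaving out Ctrl replicate 2 made this median -0.02, and leaving out Zfp276cko replicate 2 made it -0.06. Hsf1, heat shock factor 1 itself, had 1028 and 954 normalized counts in Ctrl and 888 and 863 in Zfp276cko (log2 fold change -0.18 ± 0.10, edgeR adjusted p = 0.476). Bag3, the partner of Hspb8, had 277 and 456 in Ctrl and 493 and 479 in Zfp276cko (log2 fold change 0.41 ± 0.28), which was 0.09 without Ctrl replicate 1. Like Hspb8, Bag3 had a pair of Ctrl values far apart, but with the lower value in the other Ctrl library.

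Cryab, a small heat shock protein outside the symbol rule, had 3181 normalized counts in Ctrl replicate 1 and 749 in Ctrl replicate 2, with 1129 and 1126 in Zfp276cko between them. The cytosolic chaperonin CCT and its partner prefoldin, which fold actin and tubulin, lay below Ctrl in 9 of 14 genes and above in none, against the same shares of 23.7% and 26.8%. Their median log2 fold change was -0.17, and 1 gene was lower by unadjusted p (7.3% of all genes were). That gene was Tcp1, with a log2 fold change of -0.32 ± 0.10 (edgeR adjusted p = 0.272). Of 21 further genes of ER folding and the unfolded protein response, 12 lay below and 2 above (again against 23.7% and 26.8%), with a median of -0.19. Eif2ak3 and Pdia4 were lower by unadjusted p, and Hyou1, the exchange factor of Hspa5, had a log2 fold change of -0.25 ± 0.14. The medians of both lists lay near that of the ER members (-0.20).

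Immediate early genes, which answer handling and stress within minutes, were listed because they can move with inducible chaperones. None of the 14 lay below Ctrl (against 23.7% of all genes), 6 lay above (against 26.8%) and 8 overlapped (median log2 fold change 0.22, and 0.56 without Ctrl replicate 2). Atf3, a transcription factor of the stress response, had 711 and 935 normalized counts in Ctrl and 2177 and 2173 in Zfp276cko (log2 fold change 1.40 ± 0.16, edgeR adjusted p = 0.113), and DESeq2 called it higher (adjusted p = 1.94e-08). Its part in the values of Hspa1a and Hspa1b was not tested.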

How the data were processed

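Poly(A) RNA-Seq was performed on 2 Ctrl and 2 Zfp276cko preparations of 1° mouse OGCs, with single 101-base reads from a kit that keeps the strand. The authors mapped the reads to mm10 (GRCm38) with STAR 2.5.4a. The deposited values are raw counts, one whole number for each gene and library. The submitters' processing notes name featureCounts 1.5.1 and the study's methods name HTSeq, so the counter and its strand setting are uncertain.

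Genes were kept with edgeR's filterByExpr, scaled by TMM and compared with edgeR's quasi-likelihood test (edgeR 4.0.16, R 4.3.3), with Benjamini-Hochberg adjustment over all 15766 genes tested. Genes were called where the adjusted p did not exceed 0.05, the log2 fold change was 0.6 or more in size and the mean over libraries was 20 normalized counts or more. Counts were normalized to the mean effective library size. CPM per kb uses the longest principal transcript of GENCODE M21. SE is the log2 fold change over the root of the F statistic. DESeq2 1.42.0, limma voom 3.58.1, other filters, another scaling, a replicate block and leaving out each library were alternatives. Shared windows are 101-base runs of a member's transcripts that also occur in transcripts of other genes.

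Named members were 13 textbook chaperones, the 10 with the smallest unadjusted p, those called, and in each role group the most abundant and those with the highest and lowest log2 fold change. Further members are named to account for every one. Tcp1, Eif2ak3, Pdia4, Dnajb5 and Dnaja1, among others, were named after their values were seen. Members, groups and lists were chosen with earlier results of these data known. The labels do not say whether the same replicate numbers pair the libraries, and the main test did not pair them. P-values measure the spread between preparations, each a pool of mice.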

Additional observations from a re-analysis of the deposited data

How the results depend on the processing

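DESeq2 size factors, the filters, DESeq2, limma voom and the newer edgeR fit kept the direction of the members named by the rule. Of all 63 tested members, Dnajb2 and Dnajc30, both near 0, changed sign under DESeq2. DESeq2 called 1 member lower (Hspa2), where edgeR called 0. The replicate block left 1 member, Hspa1b, on the higher side by unadjusted p and thresholds in place of 2. It made no call for any gene. The members' median log2 fold change of -0.099 was -0.063 with no filter on low counts and -0.113 with DESeq2 size factors. The group medians that moved beyond the replicate spread were -0.103 for vesicle and membrane DnaJC genes by DESeq2, 0.166 for cytosolic Hsp70 with at least 10 counts in every library, and, with no filter, -0.047 for DnaJA and DnaJB genes, -0.358 for Hsp110, -0.163 for cytosolic Hsp90 and -0.124 for Dnajc4. The genes behind a median differed between some settings. Hspa12b was dropped where at least 10 counts were required, and Dnajc22, untested by edgeR, entered the DESeq2 median. With no filter, Hspa4 of the Hsp110 group moved from -0.266 to -0.242 and Hspa2 of cytosolic Hsp70 from -0.779 to -0.756. A shift of that size was therefore not particular to Hsp110. Causes were not tested.

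Leaving out 1 library at a time gave 0 to 1 members called lower and 0 to 4 called higher by edgeR, with the same ranges, 0 to 1 and 0 to 4, by unadjusted p and thresholds. Members entirely above Ctrl numbered 15 to 25 (32.9% to 45% of all genes did so) and those entirely below 29 to 38 (29.5% to 42.9% of all genes). Wherever edgeR called members in these runs, it called a larger share of all genes, given above, so these calls do not set the members apart. The share of all genes by unadjusted p and thresholds is not given for these runs. The members' median ranged from -0.104 to -0.045. Group medians ranged from 0.182 to 0.385 for cytosolic Hsp70, from -0.161 to -0.057 for DnaJA and DnaJB, from -0.237 to -0.098 for the ER, from -0.103 to 0.177 for mitochondria, from -0.361 to 0.265 for small heat shock proteins, from -0.162 to 0.031 for DnaJC of nucleus, ribosome and cytosol, and from -0.108 to -0.016 for DnaJC of vesicles and membranes. The other lists ranged from -0.172 to -0.131 for CCT and prefoldin, from -0.197 to -0.135 for ER folding, from -0.129 to -0.016 for factors and cochaperones, and from 0.174 to 0.564 for immediate early genes.

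Over all 63 tested members, 10 changed sign without Ctrl replicate 1, 8 without Ctrl replicate 2, 1 without Zfp276cko replicate 1 and 6 without Zfp276cko replicate 2. Of the members named by the rule, those that changed sign ranged from -0.185 to 0.040 for Dnaja2, from -0.507 to 0.177 for Hspa9, from -0.361 to 0.265 for Hspb11 and from -0.313 to 0.226 for Hspe1, each positive without Ctrl replicate 1. Hspb1, at few counts, ranged from -1.65 to 0.309 and was 0.294 without Zfp276cko replicate 2. With 2 libraries a genotype and a wide Ctrl spread, differences of the size seen in most members could not be told from replicate error. Depth limits Hspb1, Hspa12b, Dnajb3, Dnajb13 and the untested members. The same replicate numbers showed no shared deviation (correlation -0.0043), but 2 libraries a genotype are too few to tell whether they were paired.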
